A study of Mus musculus with 6 samples.

Results

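The Rtl1-antisense miRNAs are 10 mature miRNAs cut from 7 hairpins of the imprinted Dlk1-Dio3 region on mouse chromosome 12. They were taken by name from a table of 1546 mature miRNAs, and all 10 were listed in it. The table was made from the livers of C57BL/6 mice by small RNA sequencing. The NC group (3 libraries) was fed a normal diet and the MAFLD group (3 libraries) a high-fat diet, which is the model of metabolic dysfunction-associated fatty liver disease in this study. Per the study's methods the mice were male, began the diets at 8 weeks of age, stayed on them for 16 weeks and were fasted for 6 hours before they were killed. The sources describe no transgene and no agent beside the diets. The study had 6 mice per diet, and which of them gave the 3 libraries of a group is not stated in the sources used here. Nor do these sources say that each library came from a different mouse. Values named by liver below are those of single libraries.

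In the Dlk1-Dio3 region the parental chromosomes are used differently. The protein-coding genes Dlk1, Rtl1 and Dio3 are transcribed from the paternal copy, and the noncoding RNAs, among them Meg3, the Rtl1 antisense transcript and a long array of miRNAs, from the maternal copy. Rtl1 encodes a retrotransposon-derived protein that is needed in the placenta and in fetal muscle. The miRNAs made from its antisense strand pair perfectly with the Rtl1 mRNA and can direct its cleavage. A hairpin gives a 5p and a 3p arm, of which one is usually retained in Argonaute and the other is degraded. MiRNAs of this region are best known from embryo, placenta, brain and muscle, and their level in adult liver is low.

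The mature sequences are shown first, since the arms are counted and compared by sequence. They come from RefSeq (GRCm38.p6) for all 10 members, are written 5′ to 3′, and the capitals mark the seed (bases 2 to 8), through which a miRNA recognises most of its targets. The hairpin genes are Mir127, Mir434, Mir136, Mir431, Mir433, Mir540 and Mir337.
mmu-miR-127-3p: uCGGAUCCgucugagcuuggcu
mmu-miR-127-5p: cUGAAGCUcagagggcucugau
mmu-miR-434-3p: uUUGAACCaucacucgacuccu
mmu-miR-434-5p: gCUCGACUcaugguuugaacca
mmu-miR-136-5p: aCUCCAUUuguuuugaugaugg
mmu-miR-136-3p: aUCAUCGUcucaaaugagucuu
mmu-miR-431-5p: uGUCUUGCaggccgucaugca
mmu-miR-433-3p: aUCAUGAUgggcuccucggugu
mmu-miR-540-3p: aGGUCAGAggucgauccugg
mmu-miR-337-5p: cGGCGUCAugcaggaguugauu
The 10 members have 10 distinct seeds. None of these seeds occurs at bases 2 to 8 of another of the 1312 listed miRNAs with a RefSeq sequence. The members are thus neighbours on the chromosome and not a seed family.

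The hairpins lie within 9.6 kb on the plus strand of GRCm38, at chr12:109585789-109595388, in the order miR-337, miR-540, miR-431, miR-433, miR-127, miR-434 and miR-136. Rtl1 lies on the minus strand. The 8 members of the 5 hairpins from miR-431 to miR-136 lie inside its coding sequence, which GENCODE M21 places at chr12:109590172-109595403, and the exact reverse complement of each of these 8 occurs at 1 position of the Rtl1 transcript of 6358 nt. For miR-127-3p this stretch of the Rtl1 coding sequence reads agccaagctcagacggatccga, at nt 2642 to 2663 of the transcript. The hairpins of miR-337 and miR-540 lie outside the Rtl1 gene of GENCODE (chr12:109589193-109600330) and inside the longer Rtl1 gene span of RefSeq (chr12:109564900-109604418).

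The hairpins of the 3 pairs of arms that were both listed as members show where each arm lies, with the mature arms in capitals, the 5p arm first.
Mir127 (chr12:109592846-109592915): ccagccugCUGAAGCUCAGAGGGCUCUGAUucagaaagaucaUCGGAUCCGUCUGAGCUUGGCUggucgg
Mir434 (chr12:109594506-109594599): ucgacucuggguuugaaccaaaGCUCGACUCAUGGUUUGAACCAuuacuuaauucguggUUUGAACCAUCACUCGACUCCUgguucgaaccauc
Mir136 (chr12:109595327-109595388): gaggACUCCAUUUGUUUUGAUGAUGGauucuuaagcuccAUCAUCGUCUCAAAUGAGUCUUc

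MiR-127-3p stood far above the other members in every library, and miR-127-3p, miR-434-5p and miR-434-3p were lower in each MAFLD liver than in each NC liver. The remaining tested arms overlapped between the diets, and the arms at the miR-337 end of the locus were barely read in either group. None of the members passed the adjusted p of the main test. Levels are given as CPM, that is, a miRNA's reads after every library has been brought to an equal sum over the listed miRNAs. The recovered depth was between 1336935 and 4685712 reads on miRNAs per library, so that 3 reads, used as the detection floor, equal between 0.640 and 2.24 CPM. The most abundant miRNA, miR-148a-3p, took between 46.8% and 71.4% of a library, and CPM values of all other miRNAs depend on that share. Diets were compared by limma on log2(CPM + 1). It was fitted to the 501 miRNAs that averaged 1 CPM or more, and its p-values were Benjamini-Hochberg adjusted over all of them. Adding 1 CPM makes the fold changes of scarce miRNAs smaller. Over the 501 miRNAs the median log2 fold change of MAFLD against NC was 0.43, and 144 of them (28.7%) were below 0.

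The libraries differed in markers of tissues other than liver. The hepatocyte list (miR-122, miR-192 and miR-194) summed to between 102722 and 176512 CPM, so hepatocyte miRNAs were abundant throughout. The brain list of 8 miRNAs summed to 484 CPM in NC replicate 1 and 768 CPM in NC replicate 2, against 53.1 CPM in NC replicate 3 and between 46.3 and 72.3 CPM in the MAFLD libraries. Most of the sum in NC replicates 1 and 2 was miR-9-5p, at 344 and 530 CPM, against 4.48 to 12.4 CPM in the other libraries. MiR-338-3p did not follow this pattern, at 1.91 to 2.75 CPM in NC and 1.07 to 4.56 CPM in MAFLD livers. Nor did miR-219a-5p, with at most 0.392 CPM in NC and 1.501 CPM in MAFLD livers. The neuronal miR-124-3p had 13.7 and 28.7 CPM in NC replicates 1 and 2. It had no reads in NC replicate 3 or in MAFLD replicates 1 and 2, and 0.652 CPM (1 read) in MAFLD replicate 3. Limma put 3 of the brain list's 7 tested miRNAs lower in MAFLD livers before adjustment (p under 0.05) and 0 after it. Over all 501 miRNAs 23 (4.59%) were lower before adjustment. Results are therefore also given with NC replicate 3 as the only NC library, a choice made after the values were seen.

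MiR-127-3p, the strand of its hairpin that is usually retained, had levels of 269, 445 and 120 CPM in the NC livers, in the order of replicates 1, 2 and 3 (687, 698 and 161 reads). The MAFLD livers, in the same order, had 82.9, 41.4 and 98.4 CPM (221, 194 and 151 reads). All MAFLD livers were below all NC livers, but the gap was narrow, since the lowest NC library was 1.22 times the highest MAFLD library and the 95% Wilson intervals of these 2 libraries, 103 to 141 CPM and 83.9 to 115 CPM, overlapped. These intervals cover counting error only. NC livers averaged 278 ± 162 CPM (SD, n = 3) and MAFLD livers 74.2 ± 29.5 CPM (SD, n = 3). The log2 fold change came to −1.79 ± 0.50 (SE), and limma placed it at rank 6 of 501 by p, with an adjusted p of 0.152. With NC replicate 3 as the only NC library it was −0.78 (adjusted p = 0.729 from limma). MiR-127-3p was thus highest in the 2 libraries that were also high in brain miRNAs, whose part in this result was not tested.

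MiR-127-5p, the other arm, was at 6.67, 12.7 and 4.49 CPM in the NC livers and at 6.00, 3.84 and 6.52 CPM in the MAFLD livers, from 6 to 20 reads per library. The groups overlapped, with NC replicate 3 below 2 of the MAFLD livers. The log2 fold change came to −0.39 ± 0.53 (SE; limma, adjusted p = 0.702), and it turned to 0.21 with NC replicate 3 as the only NC library.

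MiR-434-5p, the more abundant arm of a rodent hairpin whose arms share a repeated stretch, had levels of 34.1, 91.1 and 41.9 CPM in the NC livers. In the MAFLD livers it was at 17.6, 4.48 and 20.2 CPM. Here the groups were further apart, as the lowest NC library was 1.69 times the highest MAFLD library. The means were 55.7 ± 30.9 CPM (SD, n = 3) and 14.1 ± 8.43 CPM (SD, n = 3), and the log2 fold change came to −2.001 ± 0.57 (SE; limma, adjusted p = 0.152, rank 8 of 501). With NC replicate 3 alone the log2 fold change was −1.73 (limma, adjusted p = 0.428, and 0.0142 before adjustment). The part of the brain miRNAs in this result was not tested.

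MiR-434-3p, the scarcer arm, was at 11.4, 14.0 and 8.98 CPM in the NC livers. It was at 3.75, 0.427 and 5.21 CPM in the MAFLD livers, where MAFLD replicate 2 held 2 reads and was under the floor of 3 reads. All MAFLD livers were below all NC livers, and the lowest NC library was 1.72 times the highest MAFLD library. The log2 fold change came to −1.82 ± 0.60 (SE; limma, adjusted p = 0.196, rank 20 of 501), and −1.52 (adjusted p = 0.719 from limma) with NC replicate 3 as the only NC library. Without MAFLD replicate 2 it was −1.18 (limma, adjusted p = 0.319, and 0.0698 before adjustment).

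MiR-136-3p was at 10.2, 20.4 and 14.96 CPM in the NC livers and at 8.25, 1.49 and 10.4 CPM in the MAFLD livers. The groups overlapped only through MAFLD replicate 3, which stood just above NC replicate 1. The log2 fold change came to −1.29 ± 0.60 (SE; limma, adjusted p = 0.274, and 0.0487 before adjustment). Without MAFLD replicate 2 it was −0.60 (limma, adjusted p = 0.555, and 0.324 before adjustment), and with NC replicate 3 as the only NC library −1.32 (limma, adjusted p = 0.729). MiR-136-5p was at 2.75, 7.65 and 7.48 CPM in the NC livers and at 3.75, 2.77 and 3.26 CPM in the MAFLD livers. NC replicate 1 had the lowest level of all, and the log2 fold change came to −0.62 ± 0.55 (SE; limma, adjusted p = 0.558). It was −1.01 without NC replicate 1 and −0.999 with NC replicate 3 as the only NC library (limma, adjusted p = 0.519 and 0.759).

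The members at the other end of the locus were at the limit of the depth. MiR-337-5p was at 1.57, 1.27 and 1.496 CPM in the NC livers and at 1.501, 2.35 and 0.652 CPM in the MAFLD livers, from 1 to 11 reads per library. It was the only tested member whose highest library was a MAFLD library, and its log2 fold change came to −0.026 ± 0.58 (SE; limma, adjusted p = 0.987), or −0.056 with NC replicate 3 as the only NC library. MiR-431-5p, miR-433-3p and miR-540-3p had means under 1 CPM and were not tested. MiR-431-5p had 3 reads in the NC libraries together and 2 in the MAFLD libraries, and miR-433-3p had 6 and 3. MiR-540-3p had 1 read in the NC libraries and 6 in the MAFLD libraries, of which MAFLD replicate 3 held 5. No difference was detectable at this depth for these 3.

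**Figure D1:**
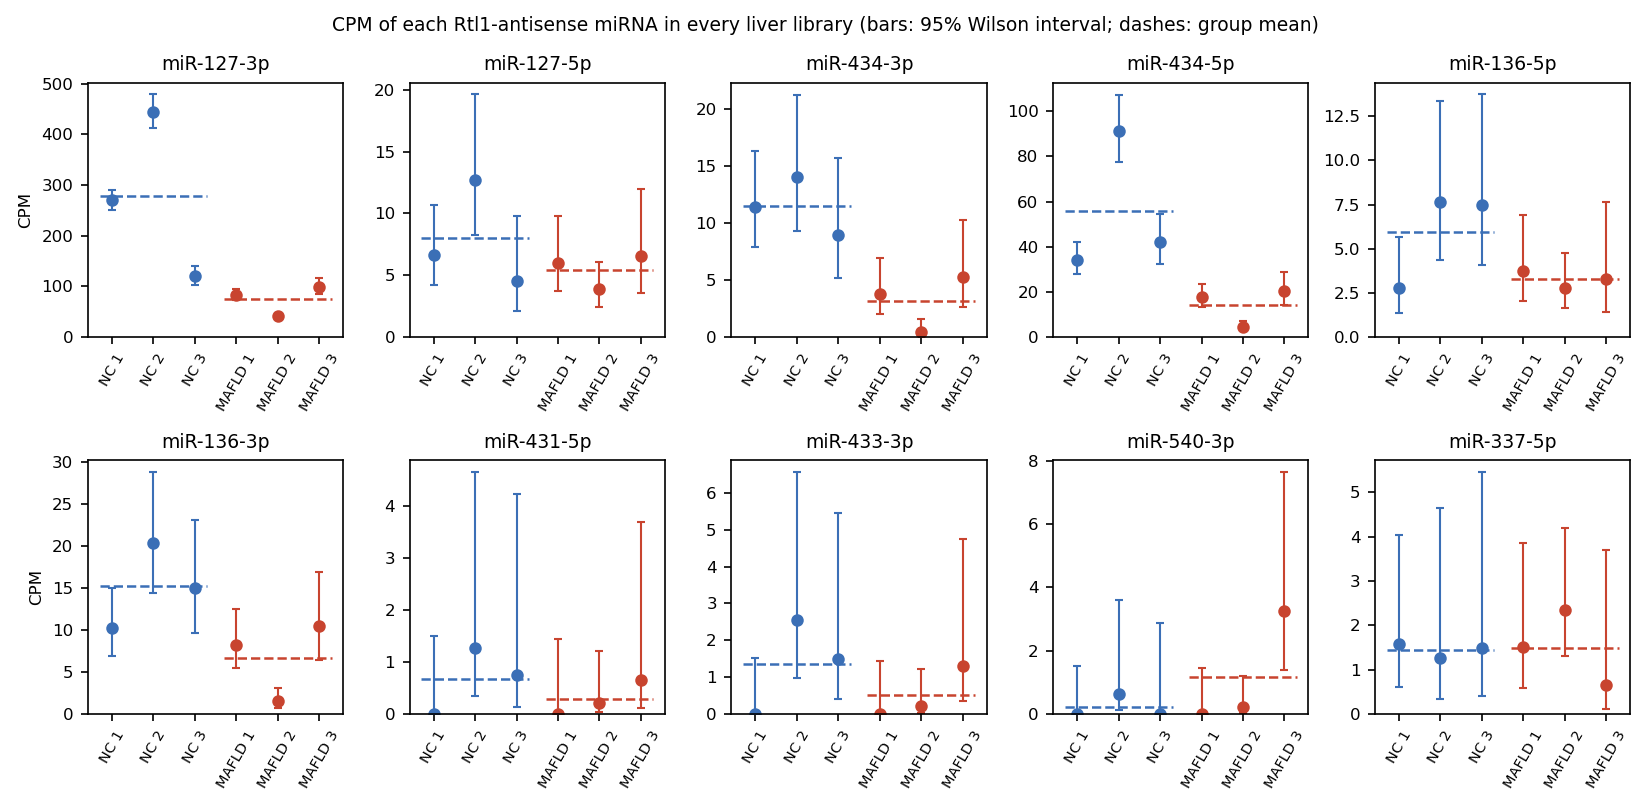
CPM (y axis, each panel with its own scale from 0) of the 10 members in the 6 libraries (x axis), NC in blue and MAFLD in red, with 95% Wilson intervals as bars and group means as dashes. MiR-127-3p, miR-434-3p and miR-434-5p have all red points below all blue points, and NC replicate 2 has the highest value of 6 of the 7 tested members.

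Of the 10 members, 7 passed the filter, and all 7 had a log2 fold change below 0, from −2.001 to −0.026, with a median of −1.29. The filter used the mean over both groups, so a member could pass through its NC libraries alone, and the counts over these 7 are a description. At the adjusted p of 0.05, 0 of the 7 were called by limma, beside 1 of all 501 miRNAs (0.2%). With p under 0.05 before adjustment, 4 members were lower (miR-127-3p, miR-434-5p, miR-434-3p and miR-136-3p) and 0 higher, where 23 of the 501 miRNAs (4.59%) were lower. With NC replicate 3 as the only NC library 1 of the 7 was lower at that p, miR-434-5p, beside 30 of 532 miRNAs (5.64%). For 3 of the 7 all MAFLD livers were below all NC livers, against 21 of the 501 (4.19%). Leaving out libraries or changing the filter or the added CPM could therefore not reverse the direction of these 3. Permuting the libraries exactly (two-sided, on log2(CPM + 1)) gave p = 0.1 for each of these 3, the smallest p that 3 libraries against 3 allow. Groups without overlap always give this value, so it only restates the lack of overlap. The same exact permutation test gave p = 0.2 for miR-136-3p, 0.4 for miR-127-5p and miR-136-5p, and 0.9 for miR-337-5p. The count test DESeq2 on the recovered reads called the same 3, with adjusted p of 0.000189 for miR-127-3p, 0.000530 for miR-434-5p and 0.0147 for miR-434-3p, beside 23 of the 501 (4.59%) called lower by it. EdgeR's quasi-likelihood test on the same reads called 0 of the members and 0 of the 501 lower (0%) at the adjusted p. Before adjustment it had 4 members and 50 of the 501 (9.98%) lower at p under 0.05. Median-ratio scaling gave 46 lower (9.18%) and 36 higher of the 501 before adjustment, where CPM gave 23 and 67, and 4 members were lower with either. Whether single members were called thus depended on the test. In whole liver, fewer cells of a type and less of the RNA per cell cannot be told apart.

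**Figure D2:**
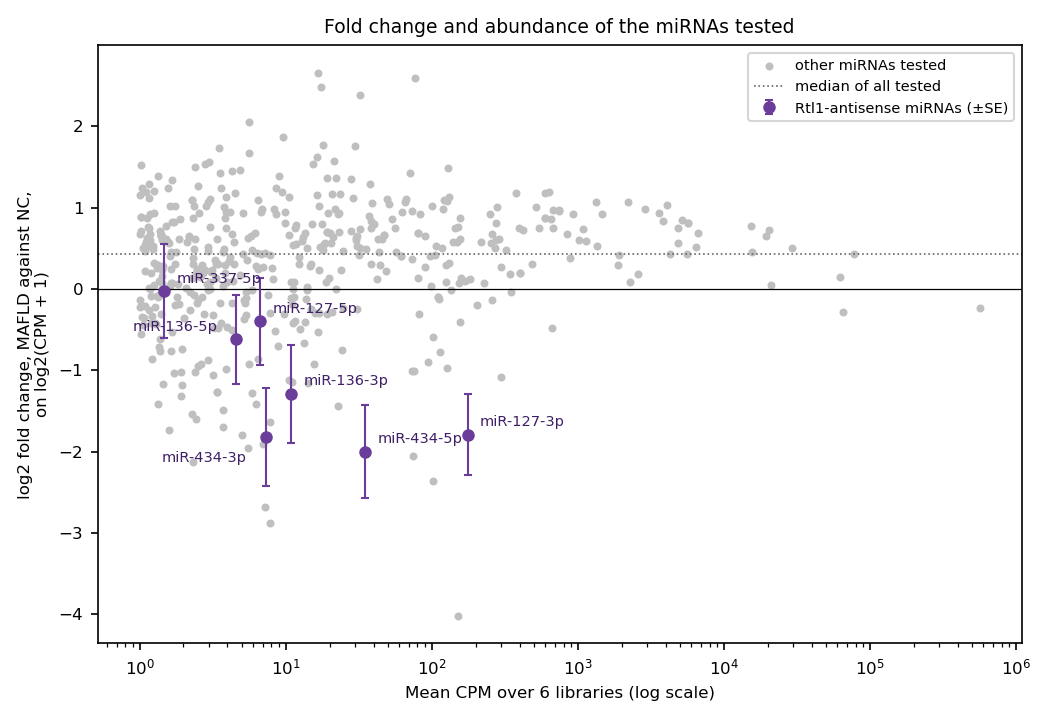
Log2 fold change of MAFLD against NC livers on log2(CPM + 1) (y axis) against the mean CPM over the 6 libraries (x axis, log scale) for the 501 tested miRNAs, with the 7 tested members in purple and their standard errors as bars. The members lie between −2.001 and −0.026, below the dotted median of all tested miRNAs at 0.43.

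The members differed in level by the hairpin and the arm. Read counts are compared between them without a length correction, since the mature sequences are all 20 to 22 nt long, but adapter ligation favours some ends over others. The hairpin of miR-127 gave between 61.9% and 82.1% of the members' reads in a library, that of miR-434 between 8.55% and 25.2%, and that of miR-136 between 3.85% and 11.1%. The 4 remaining members together gave between 0.467% and 5.20%. The share of miR-127-3p alone was 80.2% and 74.6% in NC replicates 1 and 2, 59.6% in NC replicate 3, and 67.0%, 72.1% and 65.7% in the MAFLD libraries. The 2 libraries with the brain miRNAs had the largest shares of miR-127-3p, and the share of NC replicate 3 was below those of all MAFLD libraries. Summed over the 10 members, the level was 336, 596 and 202 CPM in the NC livers and 124, 57.4 and 150 CPM in the MAFLD livers. By rank of the mean over the 6 libraries, miR-127-3p was in position 74 of the 501 tested miRNAs, miR-434-5p in position 149 and the other tested members between 235 and 423.

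**Figure D3:**
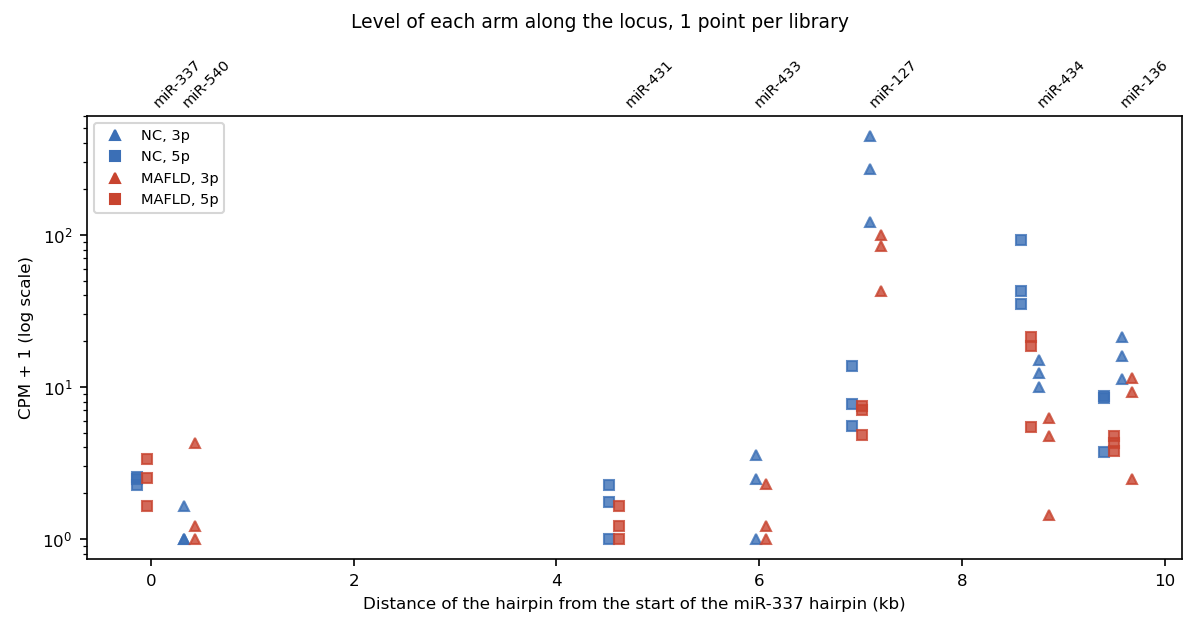
Level of each member as CPM + 1 (y axis, log scale) against the distance of its hairpin from the start of the miR-337 hairpin in kb (x axis), 1 point per library, with 3p arms as triangles and 5p arms as squares, shifted slightly sideways to separate arms and groups. MiR-127-3p, 7.06 kb from miR-337, has the highest level in each library, miR-127-5p lies below miR-434-5p by the mean, and miR-337, miR-540, miR-431 and miR-433 stay near the bottom in all libraries.

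Arm by arm, the hairpins did not use the same strand. The 3p arm was the more abundant in miR-127 in all 6 libraries, and the 5p arm in miR-434 in all 6. In miR-136 the 3p arm was the more abundant in 5 libraries and the 5p arm in MAFLD replicate 2. A ratio of arms within a library depends on the scaling between libraries only through the added 1 CPM. For miR-127 the log2 ratio of 3p to 5p (CPM + 1 each) was 5.14, 5.02 and 4.47 in the NC livers and 3.58, 3.13 and 3.73 in the MAFLD livers. All MAFLD livers were below all NC livers, with means of 4.88 ± 0.36 (SD, n = 3) and 3.48 ± 0.31 (SD, n = 3) and a difference of −1.40 (standard error 0.27; two-sided exact permutation test, p = 0.1, the smallest possible, and 0.3 adjusted over the 3 hairpins). In reads, the 5p arm made up 2.41%, 2.79% and 3.59% of the reads of both arms in the NC livers, with 95% Wilson intervals that reached up to 3.83%, 4.26% and 7.62%. In the MAFLD livers it made up 6.75%, 8.49% and 6.21%, with intervals down to 4.198%, 5.44% and 3.41%. The interval of NC replicate 3, which rests on 6 reads of the 5p arm, overlapped with those of all MAFLD libraries. Against NC replicate 3 alone the difference of the log2 ratio was −0.99. As the log2 ratios of the groups did not overlap, the exact permutation test had to give its smallest p. No choice of libraries could reverse the direction. Arm ratios were computed for these 3 hairpins only, so how many other hairpins lack overlap is not known.

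The groups overlapped in the arm ratio of miR-434. Its log2 ratio of 3p to 5p was −1.51, −2.62 and −2.10 in the NC livers and −1.97, −1.94 and −1.77 in the MAFLD livers. The MAFLD livers lay inside the range of the NC livers, and the difference was 0.18 (standard error 0.33; exact permutation test, p = 0.7, adjusted p = 0.7). For miR-136 the log2 ratio was 1.58, 1.31 and 0.91 in the NC livers and 0.96, −0.60 and 1.42 in the MAFLD livers. MAFLD replicate 2 stood apart from the rest, with 7 reads of the 3p arm and 13 of the 5p arm. The difference was −0.67 (standard error 0.64; exact permutation test, p = 0.5, adjusted p = 0.7), and −0.074 without MAFLD replicate 2. The differences between the hairpins were not tested.

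**Figure D4:**
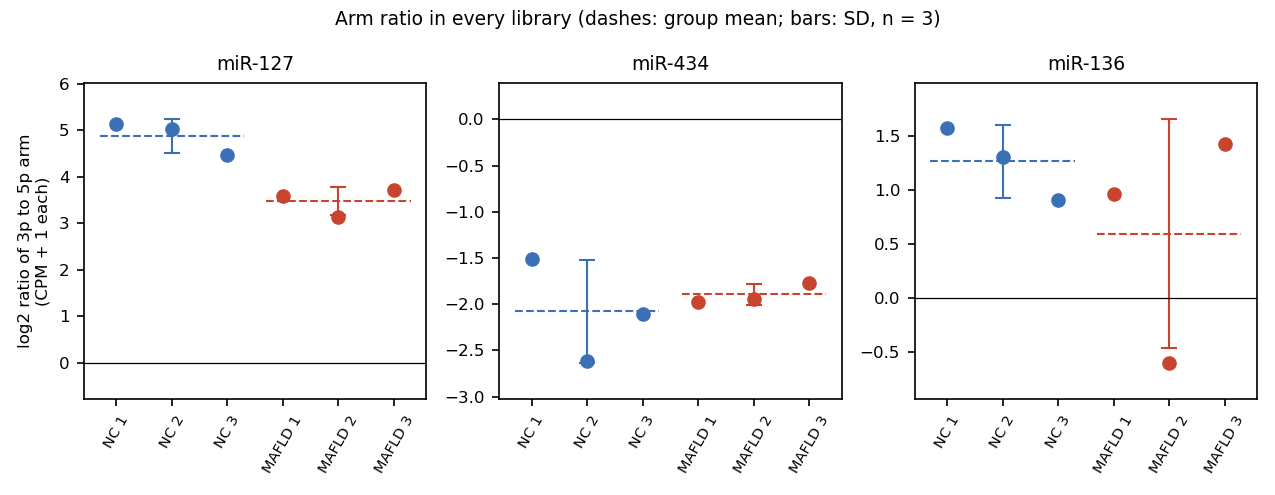
Log2 ratio of the 3p to the 5p arm (y axis, CPM + 1 each) in the 6 libraries (x axis) for miR-127, miR-434 and miR-136, with dashes for group means and bars for the SD of 3 libraries. For miR-127 the NC points lie between 4.47 and 5.14 and the MAFLD points between 3.13 and 3.73, while the groups overlap for miR-434 and miR-136.

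Over the libraries the tested members shared much of their order. NC replicate 2 was the highest for 6 of the 7, and MAFLD replicate 2 the lowest for 5 of the 7. As the mean of their log2(CPM + 1) values, each centred on its own mean, the profile stood at 0.32, 1.06 and 0.32 in the NC libraries and at −0.26, −1.24 and −0.20 in the MAFLD libraries. MiR-136-3p was nearest to this profile, with a root mean square difference of 0.39, and miR-337-5p farthest, with 0.87. Among the 231 miRNAs outside the listed miRNAs of the locus with a mean of at least 10 CPM, the 5 nearest to it over the 6 libraries were miR-7b-5p (0.39), miR-708-3p (0.40), miR-128-3p (0.52), miR-330-5p (0.52) and miR-677-5p (0.55). MiR-128-3p is a miRNA of the brain list, while miR-9-5p of that list, with a mean of 151 CPM, was not among the 5. MiR-708-3p was at 19.6, 24.2 and 17.95 CPM in the NC livers. In the MAFLD livers miR-708-3p was at 8.25, 10.2 and 13.0 CPM (limma, adjusted p = 0.299). MiR-7b-5p, from a family found mainly in neurons and endocrine cells, was at 30.6, 49.1 and 14.96 CPM in the NC livers. In the MAFLD livers it was at 23.6, 10.2 and 18.2 CPM, with an adjusted p of 0.438 from limma. MiR-7a-5p of the same family was abundant here and went the other way. It averaged 1646 CPM in the NC livers and 2218 CPM in the MAFLD livers (log2 fold change 0.42).

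**Figure D5:**
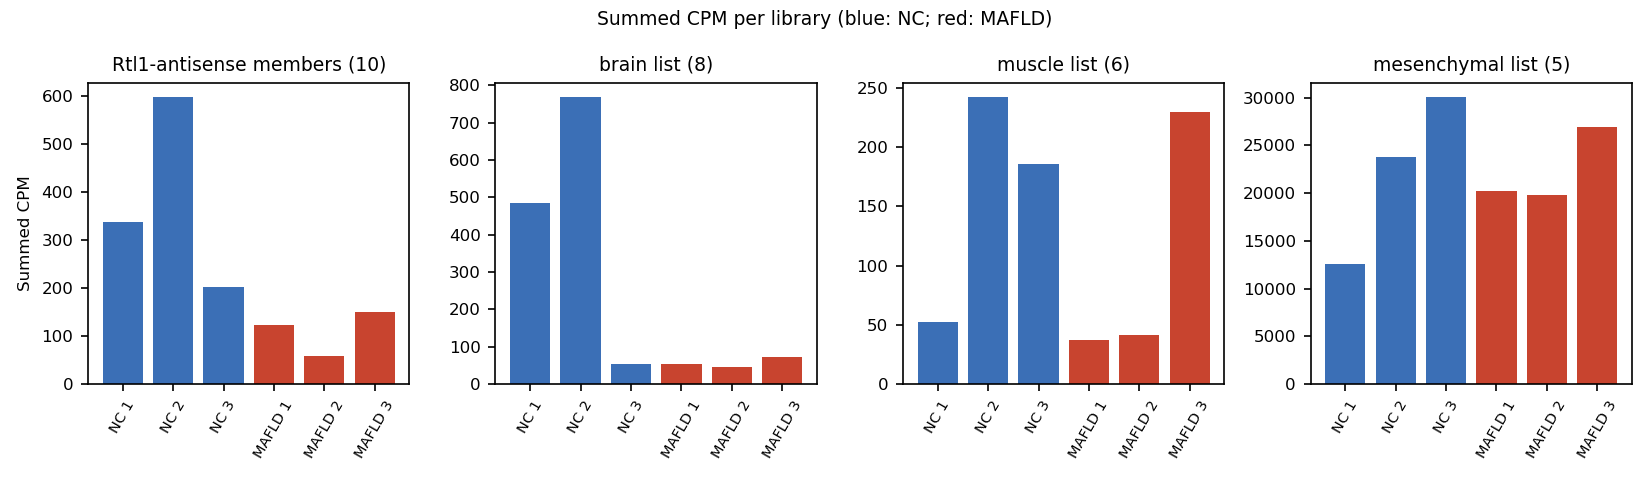
Summed CPM (y axis, each panel with its own scale from 0) of the 10 members, the brain list, the muscle list and the mesenchymal list in the 6 libraries (x axis), NC in blue and MAFLD in red. The brain list stands at 484 CPM in NC replicate 1, 768 CPM in NC replicate 2 and at most 72.3 CPM elsewhere. The members stand at 336, 596 and 202 CPM in the NC libraries and at 124, 57.4 and 150 CPM in the MAFLD libraries.

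Other tissues in which the locus is active were read beside the members. The muscle list of 6 miRNAs summed to 52.2, 242 and 185 CPM in the NC livers and to 37.5, 41.6 and 230 CPM in the MAFLD livers, most of it miR-1a-3p, while the heart miRNA miR-208a-3p was at 0 in all 6 libraries. Of the 3 muscle miRNAs tested by limma, 0 had p under 0.05 before adjustment. The mesenchymal list of 5 miRNAs, found in stellate cells and smooth muscle, summed to between 12612 and 30033 CPM in the NC livers. In the MAFLD livers it summed to between 19775 and 26950 CPM. Of its 5 miRNAs, 2 were higher in MAFLD livers at an unadjusted p under 0.05 (limma), beside 67 of all 501 miRNAs. The groups overlapped for both sums. Both arms of miR-126a, the endothelial list, summed to 4710 to 6587 CPM in the NC livers and 7659 to 10155 CPM in the MAFLD livers. This direction was opposite to that of the members and the same as that of the median of all 501 miRNAs (log2 fold change 0.43). Among the lists for other cells, leukocyte miRNAs summed to between 135 and 353 CPM, erythroid miRNAs to between 431 and 1212 CPM, biliary miRNAs to between 196 and 867 CPM and pancreatic miRNAs to between 0.784 and 6.73 CPM, with overlapping groups in each. No miRNA of any marker list passed limma's adjusted p. Before adjustment 1 of 4 hepatocyte, 2 of 2 endothelial and 1 of 5 leukocyte miRNAs were higher in MAFLD livers (p under 0.05). Over all 501 miRNAs 67 were higher at that p. The part of any of these cell types in the members' levels was not tested.

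The neighbouring miRNAs of the same strand were read from lists of the locus. The 8 listed partner arms and other miRNAs of the Rtl1-antisense stretch, namely miR-431-3p, miR-433-5p, miR-540-5p, miR-337-3p and the arms of miR-665 and miR-3070, had 37 reads over all libraries, at most 4 in any library, and none was tested. MiR-337-3p, the most abundant of them, was at 0, 0 and 0.748 CPM in the NC livers and at 0.7503, 0.854 and 2.61 CPM in the MAFLD livers, followed by miR-665-3p with at most 2.99 CPM and miR-431-3p with at most 1.27 CPM. Of the 7 listed miRNAs of the flanking hairpins of miR-770, miR-673, miR-493 and miR-370, 2 were tested, and miR-370-3p was at 5.10, 12.1 and 2.24 CPM in NC and at 1.501, 0.854 and 0.652 CPM in MAFLD livers (log2 fold change −1.69; limma, adjusted p = 0.208). MiR-770-3p was the other (log2 fold change −1.02; limma, adjusted p = 0.401), and miR-493-5p had at most 1 read in a library. In the downstream cluster from miR-379 to miR-410, 23 of 24 tested miRNAs were below 0, beside 144 of all 501 miRNAs (28.7%). The cluster's median log2 fold change was −1.09. Of its miRNAs 8 were lower with p under 0.05 before adjustment and 0 after it (limma). Over all 501 miRNAs 23 (4.59%) were lower before adjustment. The cluster's most abundant miRNAs were miR-381-3p, miR-379-5p and miR-541-5p, with log2 fold changes of −2.36, −1.01 and −1.43. Its summed level was 228, 633 and 442 CPM in the NC livers and 148, 70.2 and 211 CPM in the MAFLD livers. The members and this cluster differed in NC replicates 1 and 3. The ratio of the members' sum to that of the cluster was 1.47 in NC replicate 1, 0.94 in NC replicate 2 and 0.46 in NC replicate 3, and between 0.71 and 0.84 in the MAFLD livers. The groups overlapped in this ratio.

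Meg3 lies upstream on the same strand, at chr12:109540996-109571729 in RefSeq, and its promoter is shown because the maternal noncoding RNAs of the region are thought to depend on it. The window of 300 bases (chr12:109540746-109541045, 250 before to 50 after the start) has in capitals the cAMP response element TGACGTCA, which begins 57 bases before the start, and the TATA box letters TATAAA, which occur on both strands and overlap.
Meg3 promoter: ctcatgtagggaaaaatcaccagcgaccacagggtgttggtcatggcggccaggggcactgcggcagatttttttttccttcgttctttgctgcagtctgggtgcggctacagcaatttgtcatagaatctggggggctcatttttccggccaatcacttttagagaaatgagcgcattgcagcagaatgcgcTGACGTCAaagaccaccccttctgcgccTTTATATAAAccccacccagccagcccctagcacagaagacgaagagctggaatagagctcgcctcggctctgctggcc
Searched on both strands, TGACGTCA was found in 1.79% and TATAAA in 13.6% of the 32851 promoter windows of the same length. A match describes letters only, and no measurement here bears on binding at this promoter or on the level of Meg3.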

How the data were processed

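Per the labels, total RNA of mouse liver was freed of end and base modifications that hinder library construction. Inserts of 14 to 40 nt were selected and the 6 libraries were sequenced for 50 cycles, also per the labels. The deposited table holds CPM values of 1546 mature miRNAs, with each library scaled by the authors to the same total over the listed miRNAs. The submitters' processing notes name FastQC, cutadapt, Bowtie, edgeR and GRCm38 without versions. Filters and the miRNA database are not given in the sources used here. Each library was a column of its own and was mapped by its name. Whole reads were recovered by dividing by the smallest value above 0 of the library, and 100% of values came within 0.02 of a whole number.

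The diets were compared by limma 3.58.1 (R 4.3.3; trend, two-sided, Benjamini-Hochberg) on log2(CPM + 1), with the 501 miRNAs that averaged 1 CPM or more, and arm ratios with exact permutation tests in scipy 1.17.1. The sources used here do not say that each library came from a different mouse, so p-values measure only the spread between these libraries, which may be technical. EdgeR 4.0.16 and DESeq2 1.42.0 were run on the recovered reads as alternatives. The fits were also run on simulated data, and no result given here rests on that run. The other alternatives were pseudocounts, filters, scalings, no trend, the replicate block and each library left out. The fit with NC replicate 3 as the only NC library was added after the values were seen, and assumes that it varies like the MAFLD libraries.

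All 10 members are named, as are the 3 most abundant miRNAs of each neighbouring list where a value is given, and the 5 miRNAs nearest in profile. The members, lists and tests were chosen with earlier results of these data known. Sequences and positions come from RefSeq GRCm38.p6 and GENCODE M21. The growth protocol in the labels describes HepG2 cells, but every sample is labelled as mouse liver and was treated as such. The HepG2 experiments, qRT-PCR and plasma samples were not analysed here.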

Additional observations from a re-analysis of the deposited data

How the results depend on the processing

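In all 17 alternatives miR-127-3p, miR-434-5p and miR-136-3p were lower in MAFLD livers, as were miR-434-3p and miR-136-5p in the 16 testing them. Only rescaling or count tests could reverse this for miR-127-3p, miR-434-5p and miR-434-3p, whose groups did not overlap. Those of miR-136-3p and miR-136-5p overlapped and had no such limit. The log2 fold change of miR-127-3p ran from −2.60 to −0.78, with adjusted p from 0.000189 to 0.729, that of miR-434-5p from −2.63 to −1.38, with adjusted p from 0.000530 to 0.601, and that of miR-434-3p from −2.64 to −1.06, with adjusted p from 0.0147 to 0.719. That of miR-136-3p ran from −1.82 to −0.60 and that of miR-136-5p from −1.27 to −0.37, with 0 passing the adjusted p of 0.05. MiR-127-3p and miR-434-5p passed this p without the filter, among 7 of 1467 miRNAs lower (0.48%). They and miR-434-3p passed with DESeq2 and without NC replicate 3. The latter kept only the NC libraries high in brain miRNAs, with 21 of 498 lower (4.22%) and 107 higher. MiR-127-5p reversed to 0.21 with NC replicate 3 as the only NC library and ran from −0.70 to −0.033 with 1 library left out. MiR-337-5p reversed to 0.0040 with a pseudocount of 5 CPM, 0.011 without NC replicate 1 and 0.24 without MAFLD replicate 3, and ran from −0.27 to 0.24 with 1 library left out. The cause was not tested.

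The 1 miRNA past the adjusted p became 11 without the filter, 2 with median-ratio scaling, 2 in CPM without miR-148a-3p, 0 without the trend (limma, 74 at an unadjusted p under 0.05), 32 with DESeq2, and 0 with NC replicate 3 as the only NC library (limma, 45 at an unadjusted p under 0.05). Leaving out 1 library gave from 0 to 128 (limma), with 128 without NC replicate 3, 3 without MAFLD replicate 3 and 0 without each of the others, where 36 to 89 had an unadjusted p under 0.05. The 4 members at an unadjusted p under 0.05 became 2 at a mean of at least 10 CPM, where 3 members were tested. There 7 of 238 miRNAs (2.94%) were lower. With 1 library left out, from 2 (without MAFLD replicate 2, beside 14 of 520 miRNAs lower) to 4 members were lower at that p. Between 2.16% and 6.22% of all miRNAs tested were lower in those fits. Their median log2 fold change of −1.29 became −0.59 without the filter, where all 10 were tested, −1.79 at a mean of at least 10 CPM, −1.74 in CPM without miR-148a-3p, −1.78 with edgeR and −1.82 with DESeq2, and ran from −1.70 to −0.57 with 1 library left out, −0.57 without MAFLD replicate 2 (8 members tested). Scaling moved the median of all miRNAs from 0.43 to 0.043 with median ratios, and the share of lower miRNAs at an unadjusted p under 0.05 from 23 of 90 to 46 of 82.

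The arm ratio of miR-127 ran from −1.60 to −0.99 in 10 alternatives (only pseudocounts could reverse it). That of miR-434 (0.18) reversed to −0.26 with a pseudocount of 0.1 CPM and ran from −0.090 (without NC replicate 2) to 0.47 with 1 library left out. That of miR-136 ran from −1.08 to −0.074.

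A replicate block brought 5 miRNAs past the adjusted p, none of them members, while 4 members were lower at an unadjusted p under 0.05, beside 24 of 501 miRNAs (4.79%), and the arm ratio of miR-127 had an exact p of 0.25, the smallest that 3 pairs allow. Deviations of same-numbered libraries correlated at 0.012, −0.020 and −0.046, 0 of the 6 libraries correlated best with their own number, and the samples share only a number. Depth limits the scarce members, of which miR-431-5p and miR-433-3p had no reads in 2 libraries each and miR-540-3p in 3.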
